A study of Mus musculus with 6 samples.

Results

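The genes described here encode the proteins of the cytosolic ribosome, the machine that translates nuclear messenger RNAs. They were chosen from the deposited expression table by symbol alone. A row was taken if its symbol had the form of a large subunit name (Rpl with a number), a small subunit name (Rps with a number) or a stalk name (Rplp0, Rplp1, Rplp2), or was Rpsa. This gave 86 of 24672 genes, 53 of the large subunit and 33 of the small. Of the 86, 8 are diverged paralogs, related copies such as Rpl22l1 that can stand in for or accompany a core protein, and the other 78 were counted as core, including the entry Rpl32l.

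The study asked how retinoic acid starts meiosis in female germline stem cells and profiled messenger RNA by RNA sequencing in 3 Dif-FGSC and 3 FGSC libraries. All libraries came from C57BL/6 mouse cells past passage 20. Dif-FGSC are cells labelled as differentiated, which were taken off their feeders and seeded on granulosa cells kept from dividing. Their medium held retinoic acid at 0.1 µmol/L, BMP4 at 10 ng/mL and bFGF. FGSC stayed on STO fibroblasts, likewise kept from dividing, with GDNF, bFGF, EGF and LIF in the medium. Feeder cells, growth factors and retinoic acid therefore differed between the groups together. The labels do not say whether replicates were separate cultures, so p-values below reflect how far these libraries spread, and that spread may be technical only.

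The ribosome carries a set of proteins that are mostly present in 1 copy each, and cells transcribe their genes at very high and similar levels. Messenger RNAs of vertebrate ribosomal proteins typically begin with a cytosine followed by a run of pyrimidines, the 5′ terminal oligopyrimidine tract. Through this tract the kinase complex TORC1 and the RNA-binding protein LARP1 control their translation and stability. The transcription factor MYC is another known activator of these genes. Several of the proteins also act outside the ribosome, for example by binding MDM2, the ubiquitin ligase that holds down p53.

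The start of each transcript was read from the RefSeq promoter table of build GRCm38.p6, which holds 65 of the 86 genes. Windows of 30 bases on the gene's strand, opening 5 bases before the marked run, are shown for 3 members that were lower in Dif-FGSC and have a long tract, 2 that were lower without one, the 2 that were higher and 2 that did not pass the test. Capitals mark the longest pyrimidine run that begins with C within 10 bases of the annotated start. In Rpl34 the capitals start at the edge of that range, and the 5 bases before them are pyrimidines too. For Rpl11 the window opens at the annotated start, and capitals mark a run that begins at base 15 and fills the other 16 bases of the window. This wider look was made for Rpl11 only.
Rps6: tcgggCCTCTTTTTCgtgacgcctcccagg
Rpl35: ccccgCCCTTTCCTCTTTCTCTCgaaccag
Rps15a: gccatCTTCCCTCgccggtgagtgagtgtt
Rpl23: gaggtCCggtcacgtggctgagtgggcggg
Rpl5: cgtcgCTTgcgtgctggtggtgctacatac
Rpl34: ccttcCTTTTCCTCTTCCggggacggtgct
Rpl11: acggggccggaagtCTCCCTCTCTCTTCCT
Rplp2: agcgtCTTCCTTTCgccgccggacgccgcc
Rpl14: gcgggCCCTCTCTCTTCTCgctgagcgccg
The windows lie at chr4:86857344-86857373 (Rps6), chr2:39005114-39005143 (Rpl35), chr7:118116123-118116152 (Rps15a), chr11:97782423-97782452 (Rpl23), chr3:130730323-130730352 (Rpl34), chr4:136053364-136053393 (Rpl11), all on the minus strand, and at chr5:107900518-107900547 (Rpl5), chr7:141447642-141447671 (Rplp2) and chr9:120571504-120571533 (Rpl14) on the plus strand.

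Values are FPKM, fragments per kilobase and per M (mega) of mapped fragments, so levels of different genes can be set side by side per length. Low values in the table imply about 22.5, 19.5 and 19.7 M fragments for the Dif-FGSC libraries and 27.1, 21.8 and 17.3 M for the FGSC libraries. The cell type in the labels was checked against lists of marker genes, which were chosen with earlier results of these data known. All 10 germ cell markers were too low to test, 7 of them stayed below 0.1 FPKM in every library, and their summed level was 0.477 to 0.888 FPKM in Dif-FGSC and 0.0317 to 0.217 FPKM in FGSC. Most of the Dif-FGSC sum was Zbtb16, at 0.433, 0.478 and 0.749 FPKM in Dif-FGSC and 0 in every FGSC library, while Ifitm3 and Dppa3 were above 0 in FGSC only. Dazl, Gfra1, Sall4 and Nanos3 were listed at 0 throughout. Of 8 STO fibroblast markers and 8 granulosa markers, 7 of each stayed below 0.1 FPKM in every library. The fibroblast markers summed to 0.163 to 0.235 FPKM in Dif-FGSC and 0.336 to 0.636 FPKM in FGSC, with Col3a1 and Lum at 0 throughout. The granulosa markers summed to 0.298 to 0.474 FPKM in Dif-FGSC and 0.458 to 0.625 FPKM in FGSC, with Foxl2, Fshr, Cyp19a1, Inha and Fst at 0 throughout. Of 9 blood cell markers 7 were tested, and Fcer1a and Ms4a2 were too low to test. Of the 7 tested, 4 were higher in Dif-FGSC (57.1%) and none was lower, beside 36.5% higher and 28.6% lower among all genes tested. The summed level of the 9 was 1055 to 1067 FPKM in Dif-FGSC and 836 to 883 FPKM in FGSC. The part of these cells in the results below was not tested, and in bulk samples fewer cells of a type and less RNA per cell cannot be told apart.

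Ribosomal protein genes made up a smaller share of the summed FPKM in Dif-FGSC. The share was 19.3%, 19.5% and 19.5% in the Dif-FGSC libraries and 22.4%, 22.8% and 22.7% in the FGSC libraries. No Dif-FGSC library reached the lowest FGSC library. The means were 19.4% ± 0.0902 in Dif-FGSC and 22.6% ± 0.197 in FGSC (SD, n = 3 each). Large subunit genes took 12.2% ± 0.0586 in Dif-FGSC and 14.2% ± 0.173 in FGSC, and small subunit genes 7.18% ± 0.0444 in Dif-FGSC and 8.46% ± 0.0882 in FGSC. The ratio of the large to the small subunit sum was 1.71 ± 0.00933 in Dif-FGSC and 1.67 ± 0.0263 in FGSC, a gap close to the spread of the FGSC libraries. FPKM need not sum to the same total, and here the sum over the table was 355918 ± 768 in Dif-FGSC and 376501 ± 1460.1 in FGSC. The members summed to 69134 FPKM in Dif-FGSC and 85157 FPKM in FGSC, and this difference equals 77.8% of the difference between the sums over the whole table.

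**Figure D1:**
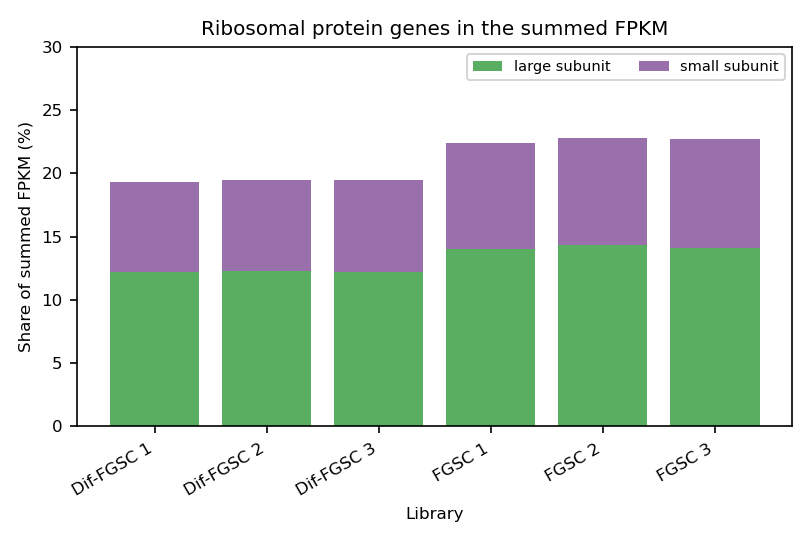
Share of the summed FPKM (%) taken by large subunit genes (green) and small subunit genes (purple) in each library, with Dif-FGSC left of FGSC. The stacked bars reach 19.3% to 19.5% in Dif-FGSC and 22.4% to 22.8% in FGSC, and both parts of the bar are shorter in Dif-FGSC.

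Most ribosomal protein genes were lower in Dif-FGSC. With limma on log2(FPKM + 1), and Benjamini-Hochberg adjustment over the 9162 genes with a mean of at least 1 FPKM, 68 of 80 tested members were lower, 2 were higher and 10 were not called at an adjusted p under 0.05. Among all 9162 genes 28.6% were lower and 36.5% higher, or 65.1% in either direction. The groups did not overlap for 70 members, 68 of them lower and 2 higher in Dif-FGSC, against a background of 31% lower and 39.6% higher. Since the members are abundant, the 556 other genes with a mean of at least 100 FPKM are a closer background, and of these 54% were lower and 18.2% higher (72.1% in either direction), with groups that did not overlap for 57.4% lower and 20.5% higher. Of the 71 members in that range 65 were lower (91.5%) and 1 was higher.

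The size of the fall varied among members. The median log2 difference (Dif-FGSC minus FGSC) of the 80 tested members was -0.29, with quartiles at -0.40 and -0.19 and extremes at -0.82 and 0.52. Over all tested genes the median was 0.03 with quartiles at -0.17 and 0.25, and over the other abundant genes it was -0.12. Of the 68 lower members 37 fell by at least 20%, 25 by 10% to 20% and 6 by less than 10%. The count rests in part on the scaling of the libraries. After quantile normalization, which gives every library the same set of values, 40 members were lower and 8 higher, with a median of -0.11, and of all genes tested 3185 were lower and 2789 higher in place of 2622 lower and 3343 higher. Where that scaling ends or turns the call of a gene named below, it is said there.

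**Figure D2:**
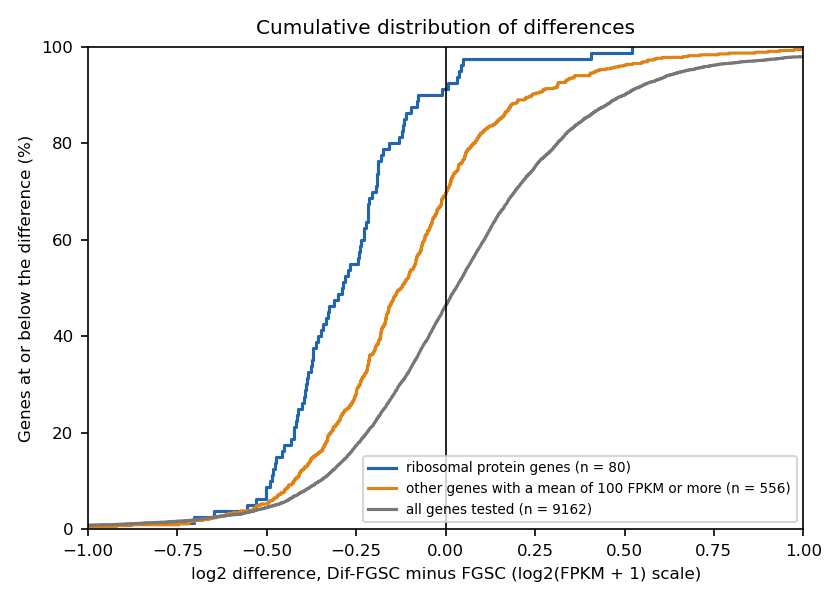
Cumulative share of genes (%) at or below each log2 difference, Dif-FGSC minus FGSC on the log2(FPKM + 1) scale, for the 80 tested ribosomal protein genes (blue), 556 other genes with a mean of at least 100 FPKM (orange) and all 9162 genes tested (grey). The blue line lies left of the orange line over most of its course, with medians of -0.29 and -0.12, and the grey line has its median at 0.03.

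The median difference was close in both subunits, and the difference between subunits was not tested. Of 49 tested large subunit genes 40 were lower (81.6%), 2 higher and 7 not called, with a median log2 difference of -0.29 and an SD of 0.23 among genes. Of 31 tested small subunit genes 28 were lower (90.3%), none was higher and 3 were not called, with a median of -0.29 and an SD of 0.16. The background was 28.6% lower and 36.5% higher among all genes tested. Among the other genes with a mean of at least 100 FPKM it was 54% and 18.2%. The order of the members by level was kept between the groups, with a Pearson r of 0.995 for mean log2 FPKM and a Spearman rho of 0.981 across the 79 tested members that were above 0 in every library. These points are genes measured in the same libraries and not independent samples. The log2 difference had little relation to the level, with a Pearson r of -0.24 and a Spearman rho of -0.063 over the same genes.

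**Figure D3:**
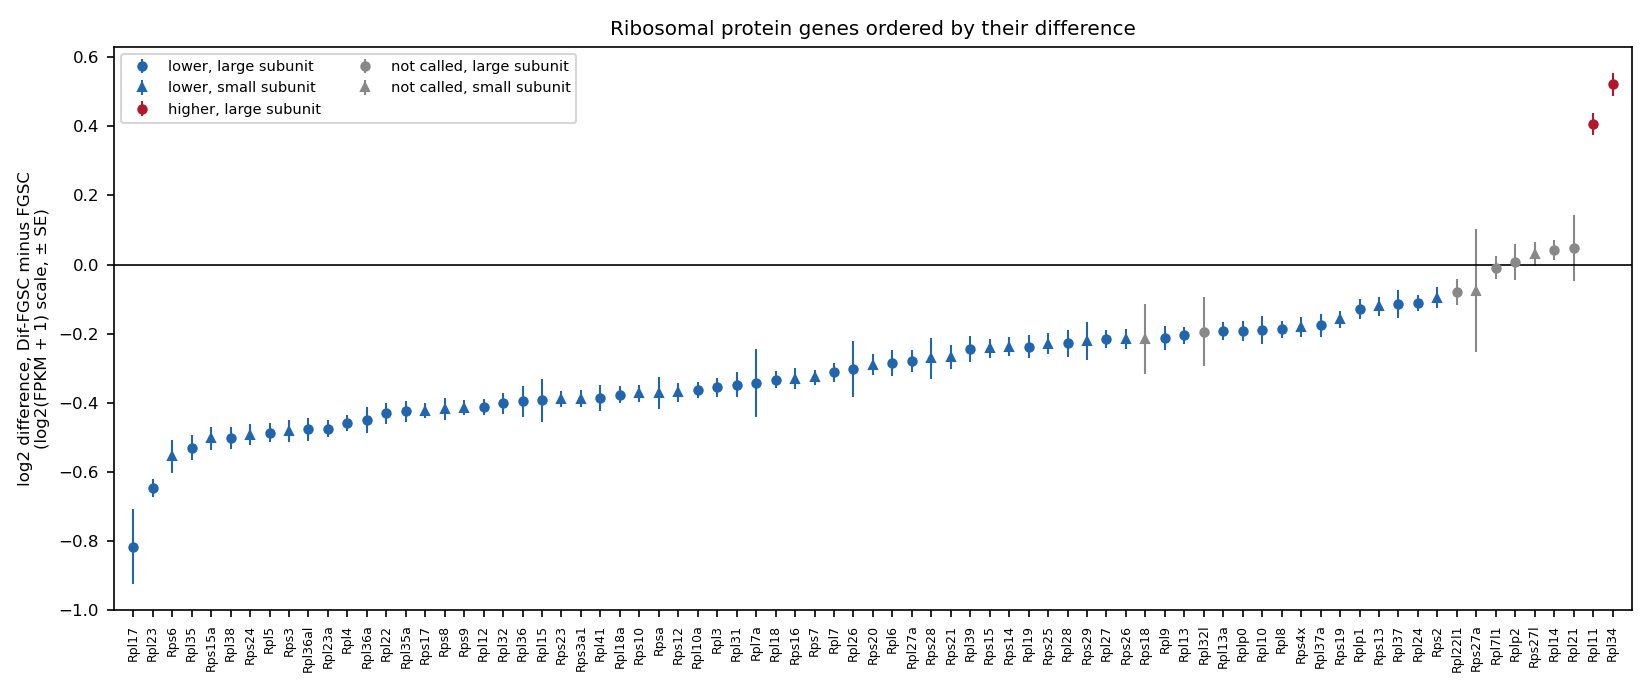
Log2 difference, Dif-FGSC minus FGSC on the log2(FPKM + 1) scale, with its standard error for 77 of the 79 tested members above 0 in every library, ordered from the largest fall to the largest rise (circles, large subunit; triangles, small subunit; blue, lower; red, higher; grey, not called). Rpl17 stands at -0.82 at the left end, and Rpl11 at 0.41 and Rpl34 at 0.52 stand apart at the right end.

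The most abundant members were all of the large subunit. Members filled 14 of the 20 and 58 of the 100 highest places of the whole table by mean FPKM. Rpl41, which encodes a very short basic peptide, had the highest mean of the members, at 2868, 2845 and 2654 FPKM in Dif-FGSC against 3568, 3579 and 3781 FPKM in FGSC. The groups did not overlap, and the log2 difference was -0.39 ± 0.0375 (SE, limma adjusted p = 7.84e-05). Rpl10, a protein that joins the large subunit late in its assembly, stood at 2756, 2813 and 2852 FPKM in Dif-FGSC against 3365, 3243 and 3006 FPKM in FGSC. Its log2 difference of -0.19 (limma adjusted p = 0.00461) became 0.02 after quantile normalization. Rpl8, which lies near the catalytic centre, stood at 2118, 2148 and 2084 FPKM in Dif-FGSC against 2376, 2463 and 2396 FPKM in FGSC. Its log2 difference was -0.19 (limma adjusted p = 0.000299), and the call was lost after quantile normalization.

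Further large subunit genes, named for the size of their fall, their level or their known roles, had the following values. Rpl4, whose loop lines the tunnel through which the new chain leaves, stood at 1734, 1743 and 1756 FPKM in Dif-FGSC against 2406, 2443 and 2343 FPKM in FGSC (log2 difference -0.46 ± 0.0231 SE, limma adjusted p = 3.54e-06). Rpl3, a protein of the catalytic core, stood at 722, 709.9 and 721 FPKM in Dif-FGSC against 909, 949 and 897 FPKM in FGSC (log2 difference -0.36, limma adjusted p = 2.4e-05). The largest fall of all members was that of Rpl17, a protein at the tunnel exit, at 608, 823 and 700.3 FPKM in Dif-FGSC against 1245, 1359 and 1135 FPKM in FGSC. Its libraries spread more than those of most members, so its log2 difference of -0.82 carries a standard error of 0.109 (limma adjusted p = 0.000401). Rpl35, another protein at the tunnel exit, stood at 1186, 1191 and 1233 FPKM in Dif-FGSC against 1745, 1815 and 1658 FPKM in FGSC (log2 difference -0.53, limma adjusted p = 1.37e-05). For each of these 4 genes the highest Dif-FGSC library lay below the lowest FGSC library. Rpl38, needed in mice for normal patterning of the axial skeleton, stood at 271, 278.8 and 275 FPKM in Dif-FGSC against 375, 391 and 405 FPKM in FGSC (log2 difference -0.50, limma adjusted p = 1.07e-05). Rpl13a, which in human monocytes also acts in translational silencing after interferon, stood at 1024, 1033 and 992 FPKM in Dif-FGSC against 1162, 1187 and 1136 FPKM in FGSC, and its log2 difference of -0.19 (limma adjusted p = 0.000503) became 0.04 after quantile normalization.

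The partners that bind MDM2 did not move together. Rpl5 and Rpl11 enter the large subunit as a pair on the smallest of its RNAs, and outside the ribosome this complex binds MDM2. Rpl5 stood at 539.5, 536 and 561 FPKM in Dif-FGSC against 769, 777 and 749 FPKM in FGSC (log2 difference -0.49 ± 0.0273 SE, limma adjusted p = 5.56e-06). Rpl11 stood at 1164, 1188 and 1151 FPKM in Dif-FGSC against 854, 916 and 873 FPKM in FGSC (log2 difference 0.41 ± 0.031 SE, limma adjusted p = 2.35e-05). Rpl5 was thus lower and Rpl11 higher in every Dif-FGSC library than in any FGSC library. The ratio of Rpl11 to Rpl5 was 2.16, 2.21 and 2.05 in Dif-FGSC and 1.11, 1.18 and 1.16 in FGSC, a ratio picked after these values were seen and not tested. Rpl23, which sits at the interface between the subunits and also binds MDM2, stood at 466, 483 and 489.5 FPKM in Dif-FGSC against 740.0, 758 and 756 FPKM in FGSC (log2 difference -0.65 ± 0.0264 SE, limma adjusted p = 1.5e-06).

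The other member that was higher was Rpl34, a large subunit protein, at 50.2, 50.1 and 48.8 FPKM in Dif-FGSC against 33.1, 35.5 and 34.4 FPKM in FGSC (log2 difference 0.52 ± 0.0341 SE, limma adjusted p = 1.15e-05). Rpl34 was among the lower members by level, and its value is one that the table appears to have combined from several entries, as described below. Rpl11 and Rpl34 were called higher under every alternative scaling and without each replicate in turn.

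The lateral stalk recruits and activates the translation factors that hydrolyse GTP, and its members differed less than most. Rplp0, its base, stood at 1162, 1127 and 1172 FPKM in Dif-FGSC against 1286, 1363 and 1305 FPKM in FGSC (log2 difference -0.19, limma adjusted p = 0.000808), a call lost after quantile normalization. Rplp1, of the acidic pair bound to that base, stood at 2069.5, 2033 and 2057 FPKM in Dif-FGSC against 2165, 2262 and 2314 FPKM in FGSC. The log2 difference of Rplp1 was -0.13 (limma adjusted p = 0.00492), and after quantile normalization it was 0.09 and called higher. Rplp2, the partner of Rplp1 in that pair, stood at 512, 540.4 and 502 FPKM in Dif-FGSC against 475, 530.2 and 542 FPKM in FGSC. Its groups overlapped and it did not pass the test (log2 difference 0.01, limma adjusted p = 0.912), but it was called higher after quantile normalization, at 0.19.

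**Figure D4:**
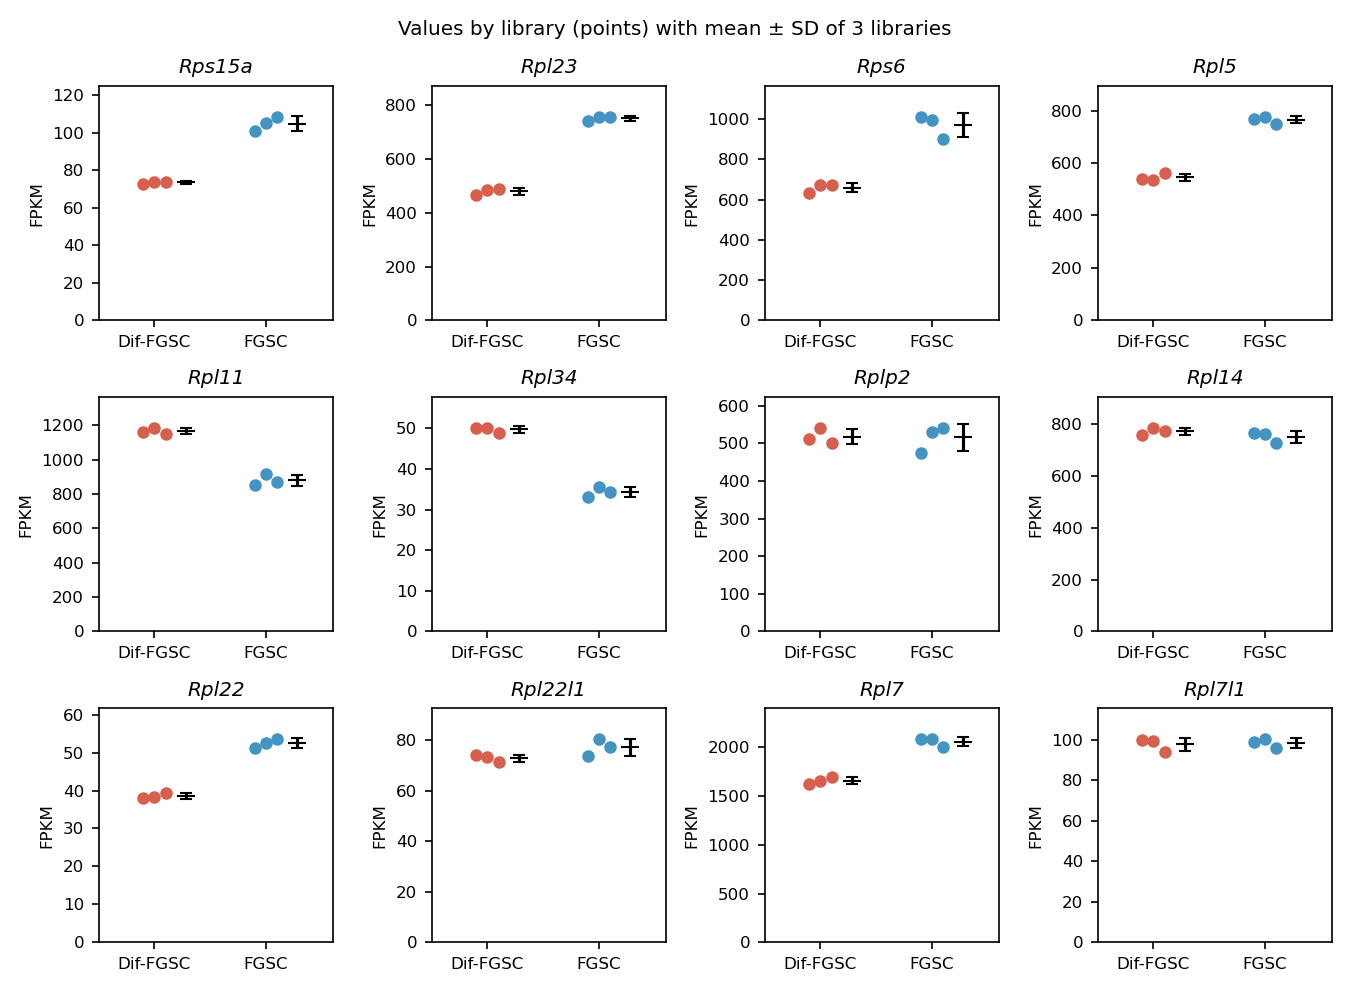
FPKM of 12 members in each library (points) with the mean ± SD of 3 libraries, Dif-FGSC (red) left of FGSC (blue), each axis starting at 0. Rps15a, Rpl23, Rps6, Rpl5, Rpl22 and Rpl7 lie lower in Dif-FGSC with no overlap, Rpl11 and Rpl34 lie higher, and Rplp2, Rpl14, Rpl22l1 and Rpl7l1 overlap.

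Rps6 and Rps15a were among the small subunit genes with the larger falls. Rps6, the ribosomal protein that the S6 kinases phosphorylate downstream of TORC1, stood at 634, 671 and 673 FPKM in Dif-FGSC against 1012, 996 and 902 FPKM in FGSC (log2 difference -0.56 ± 0.0475 SE, limma adjusted p = 4.11e-05). Rps15a stood at 72.7, 73.9 and 74.0 FPKM in Dif-FGSC against 101, 105 and 109 FPKM in FGSC (log2 difference -0.50, limma adjusted p = 1.15e-05). Neither gene had overlapping groups.

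Other small subunit genes with well known roles had smaller log2 falls than Rps6. Rps3, at the entry of the messenger RNA path and also known as a DNA repair endonuclease, stood at 427, 420.1 and 419.6 FPKM in Dif-FGSC against 565, 608 and 599 FPKM in FGSC (log2 difference -0.48, limma adjusted p = 1.16e-05). Rpsa, also known as a laminin receptor precursor, stood at 428, 452 and 452 FPKM in Dif-FGSC against 537, 583 and 605 FPKM in FGSC (log2 difference -0.37, limma adjusted p = 0.00029). Rps26, at the exit of that path, stood at 1559, 1635 and 1670.0 FPKM in Dif-FGSC against 1891, 1867 and 1893 FPKM in FGSC, and Rps25, which some viral RNAs need to start translation, at 1026, 1047 and 1048 FPKM in Dif-FGSC against 1179, 1211 and 1271 FPKM in FGSC. The log2 differences of Rps26 and Rps25 were -0.22 and -0.23 (limma adjusted p = 0.000398 and 0.000425), and both calls were lost after quantile normalization. Rps19, the gene first linked to Diamond-Blackfan anaemia in humans, stood at 154, 152 and 151 FPKM in Dif-FGSC against 167, 171 and 172 FPKM in FGSC (log2 difference -0.16, limma adjusted p = 0.000747).

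**Figure D5:**
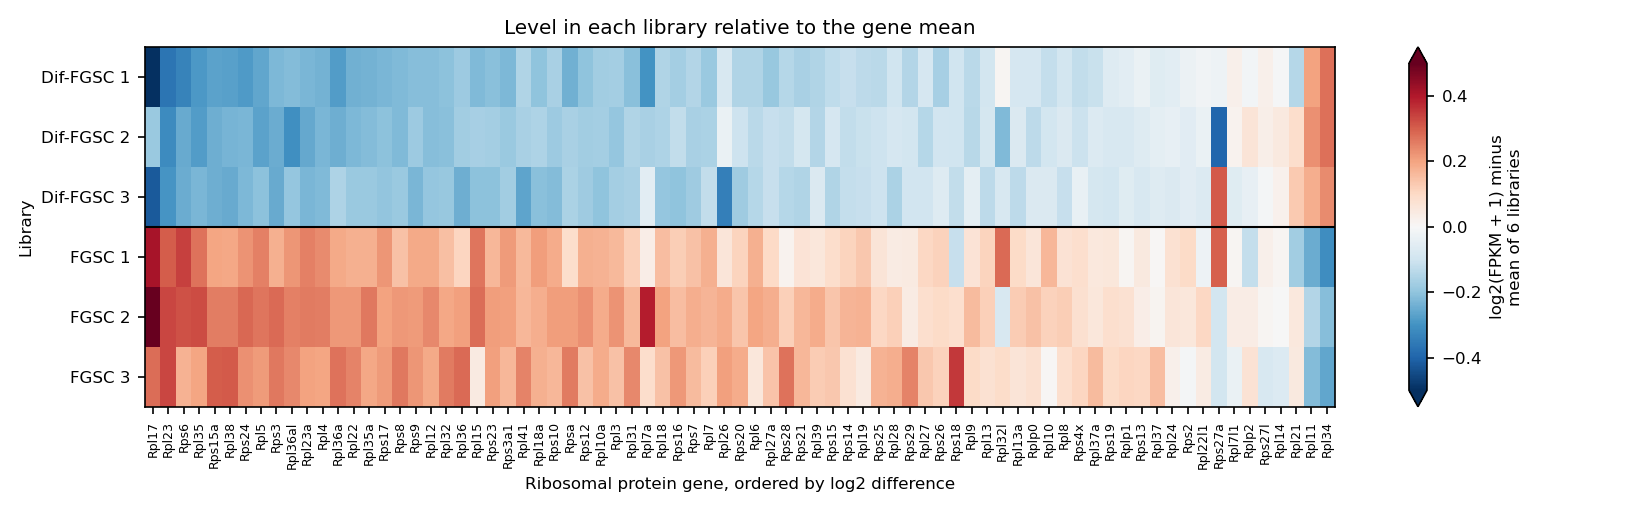
Level of 77 of the 79 tested members above 0 in every library, as log2(FPKM + 1) minus the gene's mean over the 6 libraries (colour, log2 units), with Dif-FGSC libraries above FGSC libraries and genes ordered by log2 difference. Most columns are blue in all 3 Dif-FGSC rows and red in all 3 FGSC rows, Rpl11 and Rpl34 at the right end are reversed, and Rps27a and Rps18 vary within a group.

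Of the 8 diverged paralogs 4 were tested and 1 was lower (25%), while 67 of 76 tested core genes were lower (88.2%). Among all genes tested 28.6% were lower. The difference between the shares of paralogs and core genes was not tested, and the paralog share rests on 4 genes. Rpl22l1, the paralog of Rpl22, stood at 74.1, 73.4 and 71.4 FPKM in Dif-FGSC against 73.7, 80.7 and 77.2 FPKM in FGSC and did not pass the test (log2 difference -0.08, limma adjusted p = 0.0995). It was called lower when FGSC replicate 1 was left out and under median-ratio scaling. Rpl22 itself stood at 38.0, 38.4 and 39.5 FPKM in Dif-FGSC against 51.1, 52.5 and 53.7 FPKM in FGSC (log2 difference -0.43, limma adjusted p = 1.89e-05). The ratio of Rpl22l1 to Rpl22 was 1.95, 1.91 and 1.81 in Dif-FGSC and 1.44, 1.54 and 1.44 in FGSC. That log2 ratio differed by 0.36, with a two-sided exact permutation p of 0.1, the smallest that 3 libraries against 3 allow, and 0.15 adjusted over the 3 paralog pairs with values.

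Rpl7l1 and Rpl7 gave a like picture. Rpl7l1 stood at 99.9, 99.3 and 94.1 FPKM in Dif-FGSC against 98.8, 101 and 95.8 FPKM in FGSC and did not pass the test (log2 difference -0.01, limma adjusted p = 0.824). Rpl7 stood at 1621, 1649 and 1692 FPKM in Dif-FGSC against 2085, 2076 and 2000.2 FPKM in FGSC (log2 difference -0.31, limma adjusted p = 4.24e-05), a call lost after quantile normalization. Their log2 ratio differed by 0.30 (exact permutation p = 0.1, adjusted 0.15). Rpl36al and Rpl36a fell alike. Rpl36al stood at 261, 245 and 265 FPKM in Dif-FGSC against 354, 361 and 358 FPKM in FGSC (log2 difference -0.48, limma adjusted p = 1.56e-05). Rpl36a stood at 618, 634 and 674 FPKM in Dif-FGSC against 855, 871 and 906 FPKM in FGSC (log2 difference -0.45, limma adjusted p = 3.98e-05). Their log2 ratio differed by -0.03 (exact permutation p = 0.6). Rps27l, a p53-induced paralog, stood at 195, 196 and 190.1 FPKM in Dif-FGSC against 195, 193 and 181 FPKM in FGSC and did not pass the test (log2 difference 0.03, limma adjusted p = 0.443), but was called higher after quantile normalization, at 0.07.

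Paralogs known from single tissues were near or at 0. Rpl10l, which replaces Rpl10 in male germ cells of the mouse, Rpl39l, known from testis, and Rps4l were listed at 0 in every library. In the shallowest library 3 fragments would give about 0.170 FPKM for Rpl10l, 0.215 for Rpl39l and 0.184 for Rps4l, for counting error only. Rpl3l, known from heart and skeletal muscle, was listed at 0.0213, 0.0245 and 0.0485 FPKM in Dif-FGSC and at 0, 0.0220 and 0 FPKM in FGSC, below the 0.126 FPKM that 3 fragments would give. The core partners Rpl39 and Rps4x were abundant. Rpl39 stood at 797, 799 and 842 FPKM in Dif-FGSC against 919, 1005 and 966 FPKM in FGSC (log2 difference -0.24, limma adjusted p = 0.000896), a call lost after quantile normalization. Rps4x stood at 1152, 1164 and 1223 FPKM in Dif-FGSC against 1333, 1326 and 1353 FPKM in FGSC, and its log2 difference of -0.18 (limma adjusted p = 0.000876) became 0.02 after quantile normalization.

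Some genes counted as core were listed at levels far from the rest. Among them is the entry Rpl32l, while Rpl32 itself was abundant, with means of 1458 FPKM in Dif-FGSC and 1927 FPKM in FGSC. Rps27 was listed at 0 in every library, where 3 fragments would give about 0.258 FPKM. Rpl30 was listed at 0, 34.8 and 51.7 FPKM in Dif-FGSC and at 38.9, 0 and 42.7 FPKM in FGSC. Such a 0 can be a failed estimate, and Rpl30 did not pass the test (limma adjusted p = 0.988). Rpl29 stood at 0.542, 0.784 and 0.474 FPKM in Dif-FGSC and 0.532, 1.59 and 0.573 FPKM in FGSC and was not tested. Rpl21 stood at 0.906, 1.23 and 1.30 FPKM in Dif-FGSC and 0.867, 1.18 and 1.18 FPKM in FGSC, and Rpl32l at 2.69, 2.15 and 2.47 FPKM in Dif-FGSC and 3.46, 2.47 and 2.91 FPKM in FGSC, with overlapping groups for both. Neither passed the test, but Rpl32l was called lower after quantile normalization and without FGSC replicate 2. Ribosomal protein genes have many processed pseudogenes with near-identical sequence, and the sources used here do not say how fragments shared with them were counted, which leaves these levels uncertain.

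The remaining members that were not called are Rps27a, Rps18 and Rpl14. Rps27a, which encodes ubiquitin fused to a small subunit protein, spread widely, at 468, 362 and 590.5 FPKM in Dif-FGSC and 587, 447 and 447 FPKM in FGSC (limma adjusted p = 0.724). Rps18 stood at 201, 200.4 and 197 FPKM in Dif-FGSC and at 198, 228 and 275 FPKM in FGSC (log2 difference -0.22, limma adjusted p = 0.0972), and it was called lower without FGSC replicate 1. Rpl14 was tight, at 757, 786 and 771 FPKM in Dif-FGSC and 764, 759.9 and 724 FPKM in FGSC (log2 difference 0.04 ± 0.029 SE, limma adjusted p = 0.239), and was called higher after quantile normalization, at 0.28. The calls with the least margin were those of Rps2, Rpl37 and Rpl7a, at 1438 ± 14.6, 495 ± 2.61 and 896 ± 76.1 FPKM in Dif-FGSC against 1537 ± 55.3, 536 ± 31.6 and 1141 ± 157 FPKM in FGSC (SD, n = 3 each). Each of these 3 lost its call without at least 1 library, with adjusted p up to 0.0739, 0.0948 and 0.0576 from limma. After quantile normalization the log2 difference was 0.14 for Rps2 and 0.044 for Rpl37, and Rpl7a lost its call.

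The number of digits in the table shows that some members hold combined values. Of the members above 0 in some library, 65 had values of at most 6 significant digits, the form of a single estimate. Some combined values can take that form too, so these 65 may not all be single estimates. Another 11 had longer values that came back to 6 digits when multiplied by a small whole number, such as 9 for Rps19, 6 for Rps24 and Rps21, and 3 for Rplp2, and for 6 members, Rps27a, Rps28, Rpl35a, Rpl38, Rpl22l1 and Rpl34, no such number was found. How the table combined entries is not given in the sources used here. The 65 members with at most 6 digits had a median level of 1001 FPKM in Dif-FGSC and 1220.2 FPKM in FGSC. For the 11 it was 152 FPKM in Dif-FGSC and 169.9 FPKM in FGSC. Multiplied by its number, Rps19 comes to 1369 FPKM in Dif-FGSC and 1529 FPKM in FGSC, so its place in the order of levels depends on this, while its ratio between groups does not. Among the 65 members with at most 6 digits 59 were lower (90.8%) and 1 was higher, with a median log2 difference of -0.30. Of all genes tested 28.6% were lower and 36.5% higher.

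Genes outside the symbol rule that encode proteins on the small subunit were lower as well. Fau, a fusion of a ubiquitin-like protein with Rps30, stood at 269, 280.1 and 262 FPKM in Dif-FGSC against 315, 319.9 and 306 FPKM in FGSC. Rack1, a signalling scaffold on the small subunit, stood at 1234, 1227 and 1235 FPKM in Dif-FGSC against 1452, 1496 and 1475 FPKM in FGSC. The log2 differences of Fau and Rack1 were -0.21 and -0.26 (limma adjusted p = 0.000781 and 3.46e-05), and both calls were lost after quantile normalization.

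Of 19 other genes known for a terminal oligopyrimidine tract, mostly translation factors, 13 were lower, 2 higher and 4 not called, with a median log2 difference of -0.16. The shares were 68.4% lower and 10.5% higher, beside 28.6% and 36.5% of all genes and 54% and 18.2% of the other genes with a mean of at least 100 FPKM. Npm1, the nucleolar chaperone nucleophosmin, stood at 477, 471 and 495 FPKM in Dif-FGSC against 747, 713 and 688 FPKM in FGSC (log2 difference -0.57, limma adjusted p = 9.34e-06). Eif3e, a subunit of an initiation factor, stood at 143, 149.7 and 158 FPKM in Dif-FGSC against 219, 205 and 207 FPKM in FGSC (log2 difference -0.48, limma adjusted p = 5.38e-05). The 2 higher genes, named after their values were seen, were Pabpc1, the poly(A)-binding protein, and Eif3f, with log2 differences of 0.18 and 0.40. Eif3f stood at 205, 209 and 208 FPKM in Dif-FGSC against 158, 156 and 155 FPKM in FGSC, so subunits of the same initiation factor differed in opposite directions.

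Regulators of these genes went both ways. Of 21 tested genes of the TORC1, LARP1 and MYC axis 7 were lower and 10 higher, with a median log2 difference of 0.12, shares of 33.3% and 47.6% that lie near the 28.6% and 36.5% of all genes. Without Dif-FGSC replicate 2, or without FGSC replicate 1, 4 were lower. Myc itself had no entry in the deposited values and Mycn was listed at 0 in every library, so neither was tested. The gene with the largest difference was Ubtf, the upstream binding factor of ribosomal RNA transcription, at 21.0, 20.9 and 20.9 FPKM in Dif-FGSC against 2.29, 2.67 and 2.42 FPKM in FGSC (log2 difference 2.67, limma adjusted p = 2.76e-08). Tsc2, an inhibitor of TORC1, stood at 2.79, 2.92 and 2.79 FPKM in Dif-FGSC against 1.43, 1.22 and 1.45 FPKM in FGSC (log2 difference 0.70, limma adjusted p = 3.09e-05). Larp1, named after its values were seen, stood at 114, 113 and 114 FPKM in Dif-FGSC against 76.5, 72.4 and 73.0 FPKM in FGSC (log2 difference 0.62, limma adjusted p = 2.81e-06). Ubtf, Tsc2 and Larp1 are all from the 10 higher genes, and the log2 differences of the 7 lower ones reached -0.42. The activity of TORC1 and LARP1 was not tested.

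Chaperones of ribosomal proteins and factors of subunit maturation went both ways. Of 28 tested 6 were lower, 11 higher and 11 not called, with a median log2 difference of 0.03. The shares of 21.4% lower and 39.3% higher lie near the 28.6% and 36.5% of all genes. Heatr3, known for the import of Rpl5, stood at 51.1, 52.5 and 54.0 FPKM in Dif-FGSC against 35.0, 34.7 and 30.5 FPKM in FGSC (log2 difference 0.64, limma adjusted p = 4.12e-05). Mdn1, the large ATPase that strips factors from the maturing large subunit, stood at 23.6, 24.0 and 23.4 FPKM in Dif-FGSC against 14.4, 15.9 and 17.3 FPKM in FGSC (log2 difference 0.55, limma adjusted p = 0.000136).

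Members with and without a long tract at the annotated start differed in the same direction. A run of at least 5 pyrimidines beginning with C within 10 bases of the start was searched on the gene's strand. For a gene with several annotated starts the longest run was taken. It was found for 40 of 65 members with a RefSeq window (61.5%), against 34.4% of all 27025 genes. Of the 61 that were tested, 36 had such a run (59.0%), against 36.8% of 7368 tested genes. Of these 36 members 29 were lower and 1 higher with a median log2 difference of -0.33. The 25 without it had 23 lower and 1 higher with a median of -0.23. The shares were 28.6% lower and 36.5% higher among all genes tested. Among the other genes with a mean of at least 100 FPKM they were 54% and 18.2%. Rps6, Rpl35 and Rps15a carry runs of 10, 18 and 8 bases, and Rpl34, Rplp2 and Rpl14 runs of 13, 9 and 14 bases. In Rpl23 and Rpl5 the longest run had 2 and 3. These genes were picked with their calls known, and a link between the tract and the difference was not tested. The count for Rpl34 starts at the edge of the window searched, and the 5 bases before it are pyrimidines too. The run at base 15 of Rpl11 lies outside the window searched and was not counted. A run that far from the annotated start was looked for in Rpl11 only, not in Rpl23, Rpl5 or other members. The motif CCGGAAGT, bound by factors of the ETS family, was searched on both strands of the RefSeq promoters, from 250 bases before to 50 after the start. Read from the other strand it holds CTTCC, itself a run of 5, so the searches can overlap. The motif was found in 12 of 65 members (18.5%), against 4.31% of all genes. Of the 61 tested members 12 had it (19.7%), against 11% of tested genes. The 12 had a median log2 difference of -0.27 and the 49 tested members without it -0.28. These matches describe letters in a window and not binding.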

How the data were processed

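Messenger RNA libraries of 3 Dif-FGSC and 3 FGSC samples were used. The authors deposited a table of FPKM per gene symbol and library. HISAT2 4.8.2, Cufflinks 2.2.1 and the build mm9 are named in the submitters' processing notes, without their roles. The sources used here do not give the annotation or the strand setting. Column names with con were read as control and taken as FGSC, and every direction rests on that reading. Of 24674 rows, 2 repeated symbols were reduced to the row with the higher mean, which left 24672 genes.

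Differences were tested with limma 3.58.1 (R 4.3.3; lmFit, eBayes with trend) on log2(FPKM + 1) for 9162 genes with a mean of at least 1 FPKM, with Benjamini-Hochberg adjustment over all of them and a threshold of 0.05. Log2 differences understate the change of low genes. An exact two-sided permutation test of 3 against 3 libraries cannot go below p = 0.1. The depth is an estimate from the step size of low FPKM values over 4428 genes with 1 annotated transcript. Of those values 72.2% to 75.6% lay within 0.1 of a whole fragment per library, too few to recover counts. Floors are 3 fragments in the shallowest library over the longest transcript in the reference, so they are approximate. The limma script was tested on simulated data.

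The members and all gene lists were chosen with earlier results of these data known. Genes named are those listed at 0 in some library with a mean of at least 1 FPKM, the 6 largest called rises and falls, the 5 highest means, the diverged paralogs and their partners, members with well known roles, and the 2 largest called changes of each other list. Further members were named, after their values were seen, to account for those not called or not tested. Some genes are counted but not reported here by name. Alternatives were another pseudocount, filters and scalings, no trend, a replicate block and leaving out each library. Sequences are from RefSeq (GRCm38.p6). No coordinates of mm9 are given.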

Additional observations from a re-analysis of the deposited data

How the results depend on the processing

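Quantile normalization changed the results most. It left 40 members lower and 8 higher (large subunit 23 and 6, small subunit 17 and 2, core 39 and 7), 1 diverged paralog higher, 1 other ribosomal protein coding gene lower and 4 other oligopyrimidine tract genes higher, with a median log2 difference of -0.11. Among the genes reported by name it turned the sign for Rpl10 (0.024), Rplp1 (0.089), Rpl13 (0.020), Rps2 (0.14), Rps14 (0.0013), Rps29 (0.011), Rpl37a (0.066), Rpl24 (0.12), Rpl9 (0.030), Rps4x (0.022), Rpl13a (0.045), Rps13 (0.031), Rpl19 (0.0097), Rps15 (0.0076), Rpl27 (0.027), Rpl37 (0.044), Eef1b2 (0.028) and Eif4b (0.0014). By its construction the highest genes of every library receive the same values, and members hold 14 of the 20 highest places. With median-ratio scaling 2 diverged paralogs were lower and the median was -0.32. Scaled to the genes that are not members, 66 members were lower with a median of -0.27, and the calls of Rps2 and Rpl37 were lost. Without the filter 65 members were lower of 82 tested, with Rps2, Rpl37 and Rpl7a lost. Without the trend 66 were lower. A pseudocount of 0.1, a mean of at least 5 FPKM and leaving out genes listed at 0 kept 68 lower and 2 higher.

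Same-numbered libraries deviated together with correlations of 0.131, 0.0123 and 0.173. The labels do not say whether they share more than a number, and these correlations cannot decide it. With a replicate block 69 members were lower and 2 higher, and Rpl32l gained a call. Leaving out each library in turn gave 66 to 69 members lower and 2 higher, a median of -0.317 to -0.277, 1 to 2 diverged paralogs lower, and 4 to 6 lower genes in the TORC1, LARP1 and MYC axis. Without genes listed at 0 the share of summed FPKM was 19.5% in Dif-FGSC and 22.6% in FGSC. Over core members it was 19.2% in Dif-FGSC and 22.4% in FGSC. Without the 10 most abundant other genes it was 20.7% in Dif-FGSC and 24.0% in FGSC. Members with values of at most 6 digits, an alternative chosen after seeing the data, had 1 gene higher and a median of -0.30. Of 80 tested members 45 kept their direction and call under every alternative they have. Of 345 values of groups under alternatives 319 stayed as reported.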
